A study of Mus musculus with 121 samples.

Results

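The RNA-seq libraries described here were made from mouse G1E-ER4 cells of a YY1-AID subline after 48 h of auxin (3 libraries) and at 0 h of auxin (3 libraries). They are 6 of the 12 RNA-seq libraries of an auxin time series (0, 4, 24 and 48 h, 3 libraries each) and of 121 samples in the whole study, and all 55351 gene symbols of the deposited table were considered. G1E-ER4 is an erythroid progenitor line derived from embryonic stem cells that lack functional GATA1, and it carries a GATA1 fusion that a hormone can activate. The labels name no hormone for these libraries, and the cells were asynchronous in both groups. All 12 libraries carry the degron allele, which fuses YY1 to an auxin-inducible degron so that the protein is broken down once auxin is present. The time series has no library without auxin at 48 h and no parental cells with auxin, so time in culture and auxin itself cannot be told apart from the loss of YY1. All values come from 1 subline, and nothing in the labels tells whether replicates are separate cultures, so p-values measure the spread between these libraries, which may be technical.

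YY1 is a zinc finger protein present in nearly all cells. It binds short sites that often lie close to transcription start sites, where it can activate or repress, and it has been linked to looping between enhancers and promoters. In the blood system it is known as a regulator of progenitor growth and of erythroid genes, and in muscle and liver of mice it has been linked to genes of mitochondrial respiration. Transcription factors of the GATA family, TAL1 and KLF1 drive red cell genes in erythroid progenitors, and the same progenitors are close relatives of megakaryocytes, the cells that make platelets.

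Estimated counts totalled 25.1 M to 26.2 M per library, and 24752 symbols had no count in any library. The remaining symbols were filtered on low counts, which left 15157 genes to test with edgeR's quasi-likelihood test. Levels are given as CPM, counts per 1 M counts of a library, scaled by TMM factors, which were 1.03 to 1.07 at 48 h and 0.936 to 0.942 at 0 h. On the first principal component (45.1% of the variance) the 48 h libraries lay at 42.9 to 51.1 and the 0 h libraries at −48.8 to −45.7. Mitochondrially encoded RNA made up 1.84% to 2.46% of counts at 48 h and 1.93% to 2.14% at 0 h. Of erythroid genes, Gata1 had 2504 to 3469 CPM over the 6 libraries, Tal1 271 to 363 CPM and Hba-a1 396 to 788 CPM. Reads assigned to Gata1 may come from the GATA1 fusion, so its level does not check the identity of the cells. Some red cell genes were low at 0 h, with Alas2 at 4.85 to 9.77 CPM and Slc4a1 at 2.57 to 3.83 CPM. The pluripotency genes Pou5f1 and Sox2 had no count in the 6 libraries, and of the myeloid genes Mpo and Elane stayed under 0.1 CPM, while Spi1 had 32.4 to 40.1 CPM and Fcgr3 17.5 to 26 CPM.

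Yy1 mRNA, the transcript of the tagged gene, had 266, 289 and 253 CPM at 48 h, against 267, 277 and 239.5 CPM at 0 h. The groups overlapped and the log2 fold change was 0.05 ± 0.09 (SE, adjusted p = 0.692), but it was 0.22 with an adjusted p of 0.0416 when scaled by library size alone. The degron acts on the protein, so this mRNA does not check that YY1 was lost.

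At 48 h of auxin 3777 genes (24.9% of the 15157 tested) were higher and 3733 (24.6%) were lower than at 0 h at an adjusted p under 0.05 (edgeR, Benjamini-Hochberg). Of these, 1447 rose and 637 fell by more than 1 on the log2 scale, and 450 rose and 124 fell by more than 2. The median log2 fold change of all genes tested was 0.03, and 90% of genes lay between −1 and 1.64. Scaling by library size alone raised that median by 0.17, to 0.20, and turned the split into 5493 higher and 2473 lower, so directions of small changes are relative to the TMM scale. The direction of change went with the level of the gene. In the top tertile by mean CPM 2133 of 5052 genes fell (42.2%) and 960 rose (19.0%), with a median of −0.12. In the bottom tertile 300 of 5053 fell (5.94%) and 1231 rose (24.4%), with a median of 0.35, and 20.3% rose by more than 1. Counts of list members given below are to be read beside the 24.9% higher and 24.6% lower of all genes tested. Many lists described below lie mostly in the top tertile, such as all 48 genes of ribosome biogenesis and 39 of 40 of complexes II to V. Among top-tertile members alone, 97.9% of ribosome biogenesis, 88.5% of nucleotide synthesis, 87.5% of TCA cycle, 83.7% of translation factor, 76.9% of complexes II to V and 73.3% of complex I genes were lower, beside 42.2% of all genes of that tertile. For glycolysis and hypoxia that share was 66.7%, for SR and hnRNP splicing regulators 59.5%, for iron genes 50%, for cytosolic ribosomal proteins 27.8% and for G2 and M phase 26.9%. Between 24 h and 48 h far fewer genes differed: 459 (3.03%) were higher and 430 (2.84%) lower at 48 h than at 24 h.

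**Figure D1:**
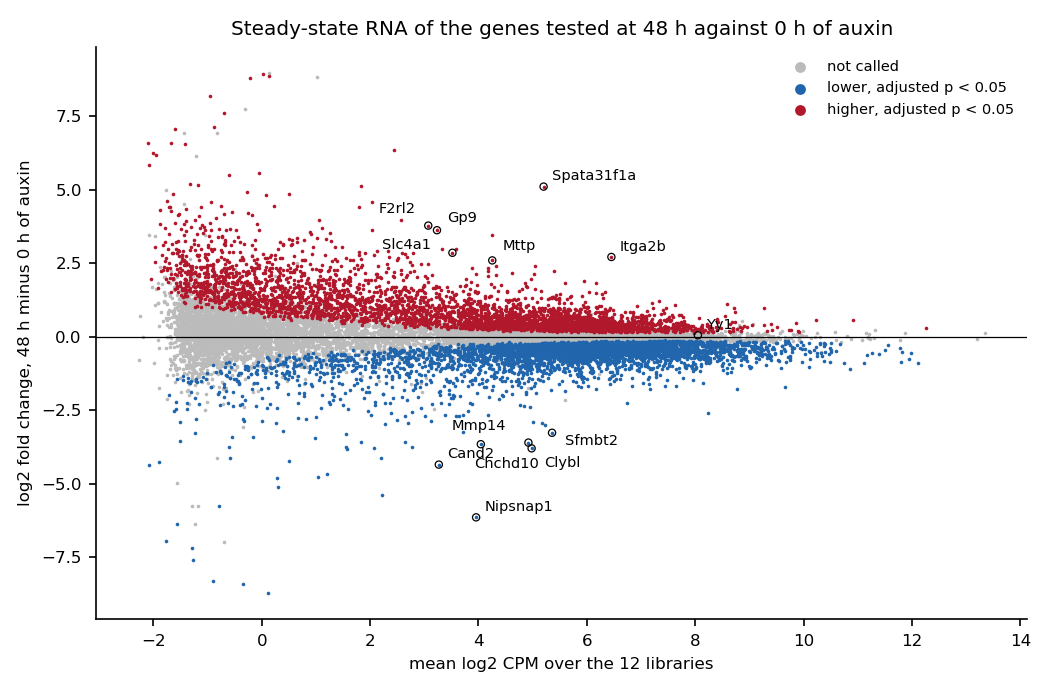
Log2 fold change of 48 h minus 0 h of auxin (vertical axis) against the mean log2 CPM over the 12 libraries (horizontal axis) for the 15157 genes tested, with red points for the 3777 higher and blue points for the 3733 lower genes. Higher genes spread furthest at low levels, lower genes are the more frequent at high levels, and Yy1 lies near 0.

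The genes that fell furthest lost most of their RNA. The 12 lowest and 12 highest genes were picked among genes whose 48 h and 0 h libraries do not overlap, so their lack of overlap is no separate result. Of all 15157 genes tested, 4423 had every 48 h library above every 0 h library, and 4261 had every one below. Nipsnap1, a mitochondrial protein linked to mitophagy, had 0.484, 0.531 and 0.485 CPM at 48 h, against 34.6, 37.2 and 35.2 CPM at 0 h (log2 fold change −6.14 ± 0.25, adjusted p = 2.37e-09). Cand2, a relative of the cullin exchange factor CAND1, had 0.707, 1.52 and 1.38 CPM at 48 h, against 26.4, 24.8 and 22.6 CPM at 0 h (−4.35 ± 0.21, adjusted p = 8.63e-09). In both genes every 48 h library lay far under every 0 h library. Clybl, a mitochondrial lyase that acts on citramalyl-CoA, had 6.10, 4.21 and 3.84 CPM at 48 h, against 61.3, 64.7 and 71.2 CPM at 0 h (−3.80 ± 0.29, adjusted p = 3.36e-07). Chchd10, a protein of the mitochondrial intermembrane space, had 3.76, 5.80 and 5.67 CPM at 48 h, against 48.6, 60.4 and 76.1 CPM at 0 h (−3.60 ± 0.23, adjusted p = 8.24e-08). The 48 h libraries were again all below the 0 h libraries, although the 0 h values of Chchd10 spread more widely than those of the other genes.

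Subunits of the enzyme that breaks down branched-chain keto acids in mitochondria were among the 12 lowest genes. Dbt, its transacylase core, had 3.50, 3.45 and 3.09 CPM at 48 h, against 29.7, 36.1 and 29.7 CPM at 0 h (−3.25 ± 0.17, adjusted p = 1.74e-08). Bckdhb, the beta subunit of its decarboxylase, had 1.94, 2.62 and 2.54 CPM at 48 h, against 16.9, 16.6 and 18.4 CPM at 0 h (−2.87 ± 0.14, adjusted p = 1.19e-08). No 48 h library came near the level of any 0 h library in these genes. Sfmbt2, an MBT-domain Polycomb protein whose fly relative works with the fly counterpart of YY1, had 10.4, 9.10 and 8.17 CPM at 48 h, against 87.1, 99.0 and 80.6 CPM at 0 h (−3.27 ± 0.11, adjusted p = 6.27e-10). Its 48 h libraries lay close together and far below those at 0 h. Mmp14, a membrane-bound matrix metalloproteinase, had 3.02, 2.39 and 2.20 CPM at 48 h, against 33.6, 31.9 and 30.6 CPM at 0 h (−3.66 ± 0.18, adjusted p = 8.79e-09). Ydjc had 8.34, 10.5 and 8.65 CPM at 48 h, against 68.3, 71.1 and 72.5 CPM at 0 h (−2.95 ± 0.09, adjusted p = 4.85e-10). The rest of the 12 were Col18a1, the collagen XVIII chain (−3.01), Ttc27 (−2.91) and the zinc finger gene Zfp827 (−2.71).

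Some of these genes stand next to another gene that also fell and some next to a gene that rose, by the order of genes in RefSeq GRCm38.p6. Ccdc116, next to Ydjc, fell by 2.70 on the log2 scale (SE 0.17), Mrpl52, next to Mmp14, by 1.82 (SE 0.07), and Slc19a1, the reduced folate carrier next to Col18a1, fell too (−1.51, SE 0.12). Nf2, on 1 side of Nipsnap1, fell by 0.40 (SE 0.07, adjusted p = 0.000185). Thoc5, on the other side (0.01), Rpl32 beside Cand2 (−0.14) and Birc6 beside Ttc27 (−0.10) did not pass the test. Lrrc39, beside Dbt, rose (1.62 ± 0.30, adjusted p = 0.000593), as did Gm867 beside Chchd10 (3.36, adjusted p = 0.000116). Tm9sf2 beside Clybl (0.155) and Ttk beside Bckdhb (0.209) rose less. Pofut2, also beside Col18a1 (−0.70), Itih5 beside Sfmbt2 (−0.51), Tent5a beside Bckdhb (−0.44) and Lsm6 beside Zfp827 (−0.40) fell. No share of fallen neighbours was set beside the 24.6% lower of all genes tested, so these pairs show no local pattern. Whether reads from neighbouring or overlapping genes were shared in the counting was not tested.

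The time course differed among these genes. Nipsnap1, Cand2, Mmp14 and Ydjc were lower at 48 h than at 24 h (−1.79, −0.88, −1.30 and −0.63 on the log2 scale, adjusted p = 0.00595, 0.036, 0.00161 and 0.00239). For Sfmbt2 the difference between 48 h and 24 h was −0.06 ± 0.12 and did not pass the test.

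**Figure D2:**
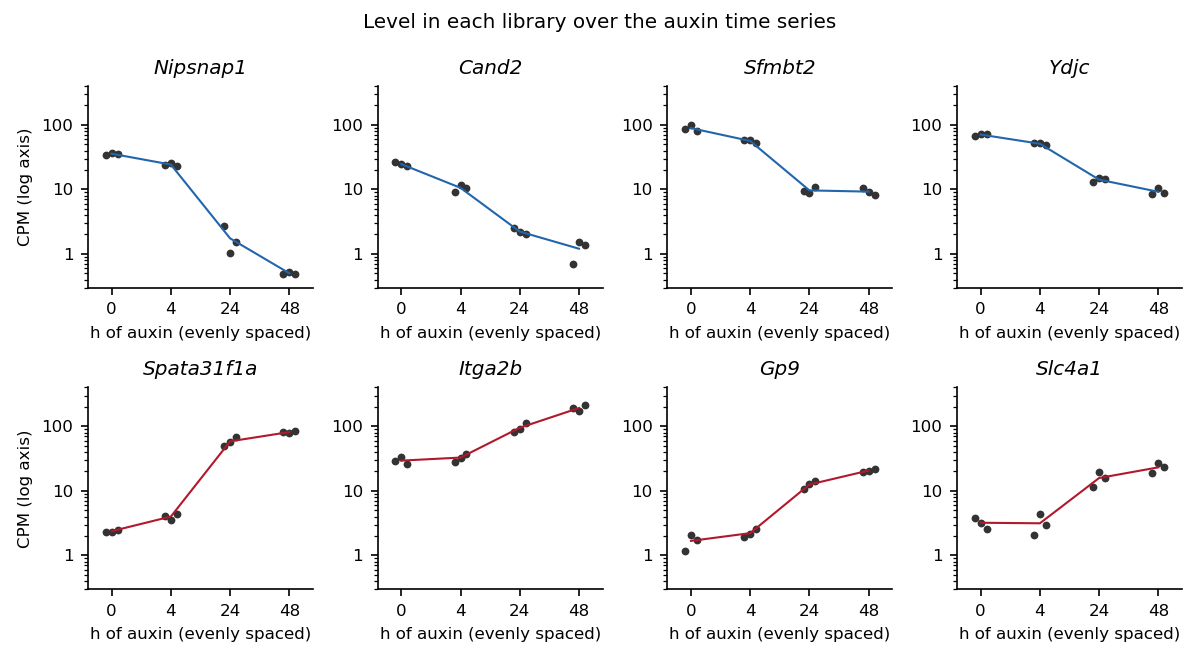
CPM on a log axis in each of the 12 libraries at 0, 4, 24 and 48 h of auxin (evenly spaced), with lines through the means, for 4 genes that fell (top) and 4 that rose (bottom). Nipsnap1 ends at 0.484 to 0.531 CPM at 48 h, while Sfmbt2 is about level between 24 h and 48 h, and Itga2b is higher at 48 h than at 24 h.

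YY1 is known to recognise letters around ATGGC, and promoters were therefore searched for AANATGGC on either strand (GCCATNTT on the other). RefSeq promoters of GRCm38.p6 cover 250 bases before to 50 bases after each start, and 8649 of the 10618 protein-coding genes tested had at least 1 promoter there (81.9% of the lower, 82.4% of the higher and 80.6% of the genes not called). The promoters below belong to the 3 lowest genes whose promoter holds these letters and to the lowest gene whose promoter also holds the longer core ATGGCGGC. Capitals mark the matched letters, and each run is 300 bases on the gene's strand.
Clybl: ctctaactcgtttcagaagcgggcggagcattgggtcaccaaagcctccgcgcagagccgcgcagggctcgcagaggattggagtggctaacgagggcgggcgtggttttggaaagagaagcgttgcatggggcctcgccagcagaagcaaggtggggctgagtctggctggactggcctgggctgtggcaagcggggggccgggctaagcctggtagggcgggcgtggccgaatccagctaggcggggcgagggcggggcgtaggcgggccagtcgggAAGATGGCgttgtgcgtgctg
Sfmbt2: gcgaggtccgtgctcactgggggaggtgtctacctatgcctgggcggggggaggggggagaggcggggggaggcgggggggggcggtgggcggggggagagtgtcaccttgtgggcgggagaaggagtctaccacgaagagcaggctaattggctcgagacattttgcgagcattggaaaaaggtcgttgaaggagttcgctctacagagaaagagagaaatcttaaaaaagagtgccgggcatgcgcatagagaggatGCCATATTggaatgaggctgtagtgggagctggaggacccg
Ncoa1: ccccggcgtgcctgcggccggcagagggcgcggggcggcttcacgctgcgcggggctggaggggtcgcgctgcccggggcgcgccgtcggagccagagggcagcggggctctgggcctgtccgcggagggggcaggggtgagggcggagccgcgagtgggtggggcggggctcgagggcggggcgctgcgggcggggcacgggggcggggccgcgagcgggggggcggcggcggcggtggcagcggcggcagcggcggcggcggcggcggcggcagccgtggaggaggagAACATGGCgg
Fmc1: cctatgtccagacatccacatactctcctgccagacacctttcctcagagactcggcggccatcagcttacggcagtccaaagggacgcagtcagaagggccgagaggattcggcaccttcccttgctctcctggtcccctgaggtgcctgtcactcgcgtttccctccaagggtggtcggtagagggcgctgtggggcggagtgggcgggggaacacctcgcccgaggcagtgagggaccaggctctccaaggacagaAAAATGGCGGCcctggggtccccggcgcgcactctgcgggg
The Clybl promoter is chr14:122181444-122181743 (plus strand), and its match begins at position 30, counted from 1 at the start site. The Sfmbt2 promoter printed, 1 of 2 listed for the gene, is chr2:10372186-10372485 (plus strand), with a match on the other strand at position 10. The promoter of Ncoa1, a nuclear receptor coactivator (−2.66), is chr12:4477133-4477432 (minus strand), with a match at position 41. Fmc1, an assembly factor of the mitochondrial ATP synthase (−2.03), has its promoter at chr6:38534611-38534910 (plus strand), where AANATGGC and ATGGCGGC overlap from position 10. All 4 matches lie after the start site, in the part of the window that is transcribed.

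Among protein-coding genes AANATGGC was in a promoter of 14% of 2712 that fell, 9.45% of 2126 that rose and 10.1% of 3811 not called. Of all 8649 such genes tested 11.2% held it. The core ATGGCGGC, which overlaps AANATGGC in some promoters, was in 9%, 4.66% and 5.35% of the same gene groups and in 6.32% of all such genes. Over all 32851 promoters in the table, counted singly and with genes not tested among them, the shares were 6.05% and 2.24%. Those promoters had a median GC content of 52.7%, so they are no like background. The difference depended on the level of the genes. In the middle tertile by mean CPM 15.9% of lower genes, 7.49% of higher genes and 8.12% of genes not called held AANATGGC. The bottom tertile had an excess too, with 13.1% of 122 lower, 5.03% of 318 higher and 6.42% of 872 genes not called. In the top tertile the shares were 13%, 14% and 14%, with no excess among lower genes. Median GC content was 61.3% for promoters of lower genes, 60.0% for higher genes and 60.7% for genes not called. In the promoter listed first for each gene, 51.7% of 381 matches in lower genes began after the start site, against 43.2% of 192 in higher genes and 43.7% of 357 in genes not called. These shares describe letters only. Of the 12 lowest genes 9 had a promoter in the table, and of these Clybl and Sfmbt2 held AANATGGC, and of the 12 highest genes 8 had a promoter and 1, Mttp, held it.

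Nuclear genes for mitochondrial respiration fell across most of their list. Complex I, which feeds electrons from NADH into the respiratory chain, had 30 of 45 genes lower and 1 higher (0 without 48 h replicate 2), with a median log2 fold change of −0.34. Ndufaf6, an assembly factor of complex I, had 2.79, 2.47 and 2.91 CPM at 48 h, against 14.1, 13.3 and 16.6 CPM at 0 h (−2.42 ± 0.13, adjusted p = 1.95e-08). The subunit Ndufc1 had 13.6, 14.4 and 12.8 CPM at 48 h, against 36.0, 44.0 and 42.6 CPM at 0 h (−1.59 ± 0.09, adjusted p = 3.47e-08). In both the groups were clearly apart, and Ndufa5 (−0.97) and Ndufb11 (−0.82) fell less. Complexes II to V, the rest of the chain and the ATP synthase, had 30 of 40 genes lower and 1 higher, Atp5mc2 (1.20), with a median of −0.37. The count of higher genes there was 0 without 48 h replicate 2 or without 0 h replicate 1, and 2 without 0 h replicate 3. Uqcrc1, a core subunit of complex III, had 145, 167 and 156 CPM at 48 h, against 329, 347 and 366 CPM at 0 h (−1.16 ± 0.07). The complex II subunits Sdhd (−0.89) and Sdhc (−0.80) and the ATP synthase subunit Atp5f1a (−0.87) fell as well.

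The same direction held for enzymes and machinery that serve these complexes. Of 20 genes of the TCA cycle and pyruvate entry, 15 fell and none rose, with a median of −0.44. Suclg2, a subunit of succinyl-CoA ligase, had 35.1, 45.3 and 38.3 CPM at 48 h, against 180.2, 178 and 203 CPM at 0 h (−2.24 ± 0.12, adjusted p = 1.52e-08). Its 48 h libraries all lay far below its 0 h libraries. Sucla2, the partner subunit (−0.90), Pdhx of the pyruvate dehydrogenase complex (−1.07) and Idh3a (−0.73) also fell. Of 28 genes of mitochondrial protein import 24 fell and none rose (median −0.51), among them the processing peptidase subunit Pmpca (−0.999), the HSP70 exchange factor Grpel1 (−1.08), the chaperonin Hspd1 (−0.89) and the outer membrane channel Tomm40 (−0.75).

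Mitochondrial ribosomal proteins had 47 of 78 genes lower and 4 higher, with a median of −0.26. The count of higher genes was 2 without 48 h replicate 2 or 3, or without 0 h replicate 1 or 2. Mrpl52 had 16.6, 16.2 and 18.2 CPM at 48 h, against 61.1, 57.7 and 61.3 CPM at 0 h (−1.82 ± 0.07, adjusted p = 1.51e-09), and Mrps18b (−1.54), Mrpl42 (−1.54) and Mrpl50 (−0.79) fell. Mitochondrial tRNA synthetases were mixed: 4 of 17 fell and 1 rose (2 without 0 h replicate 1), with a median of 0.00, and by library size alone 2 fell and 8 rose. Wars2, the mitochondrial tryptophanyl enzyme, had 2.05, 1.71 and 1.38 CPM at 48 h, against 9.86, 14.8 and 14.4 CPM at 0 h (−2.93 ± 0.21, adjusted p = 2.08e-07). Sars2 rose (0.55 ± 0.06, adjusted p = 1.25e-05), and Rars2 (−0.66) fell. The 13 mRNAs encoded by mitochondrial DNA itself did not follow the nuclear genes as a list. Of them mt-Cytb (−0.53 ± 0.10) and mt-Nd1 (−0.28 ± 0.07) fell and mt-Co1 (0.30 ± 0.09, adjusted p = 0.0109) rose, and the median was −0.12, or 0.06 when scaled by library size alone. The call of mt-Nd1 was lost by library size alone (−0.11, adjusted p = 0.179). The call of mt-Co1 was lost without 48 h replicate 3 (0.21, adjusted p = 0.0639), and 4 of the 13 were lower without 0 h replicate 3.

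**Figure D3:**
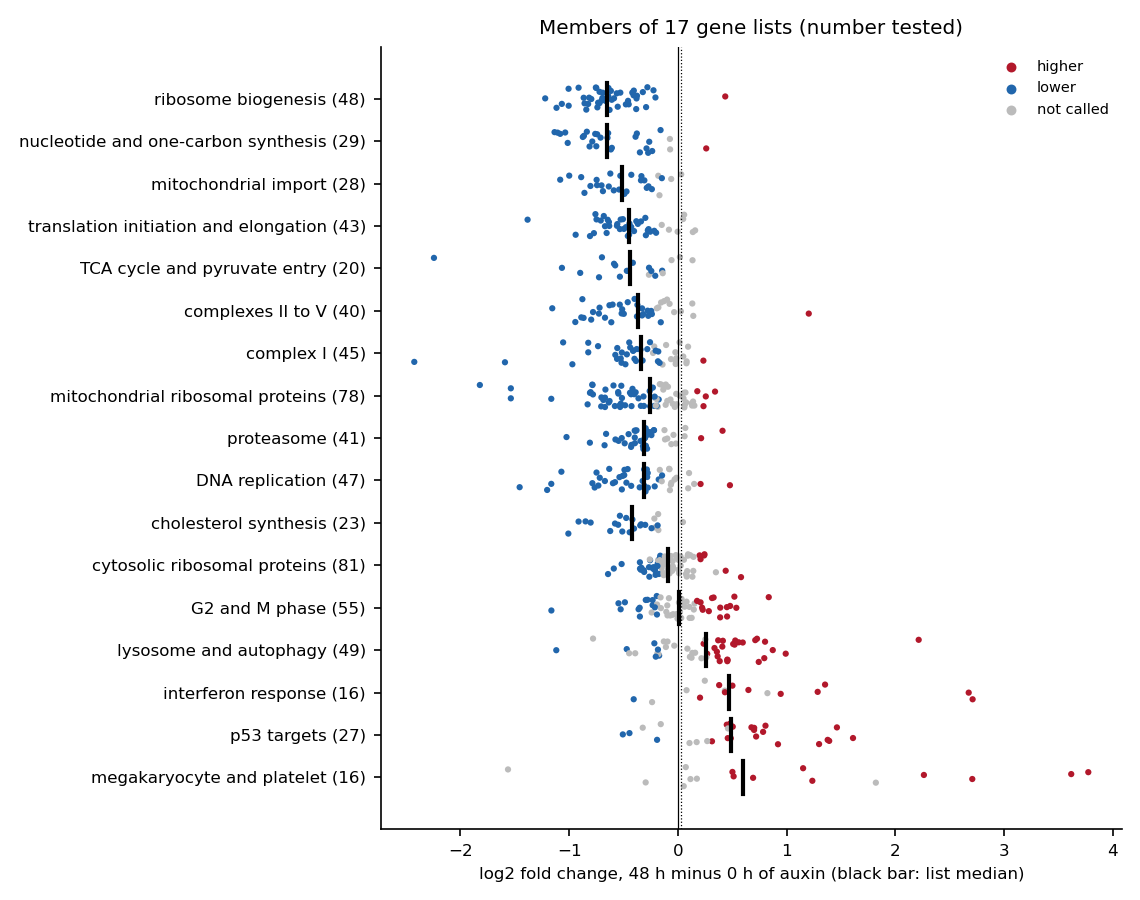
Log2 fold change of 48 h minus 0 h for each tested member of 17 gene lists (number tested in parentheses), with black bars at list medians, the solid line at 0 and the dotted line at the median of all genes tested (0.03). Points of ribosome biogenesis and nucleotide synthesis lie almost wholly on the lower side and those of p53 targets mostly on the higher side, while the median of cytosolic ribosomal proteins (−0.09) turns to 0.08 when scaled by library size alone.

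Genes that build ribosomes fell almost without exception. Of 48 genes of ribosome biogenesis 47 fell and 1 rose, Utp20 (0.44), with a median of −0.65, and by library size alone 43 fell and 1 rose. Nolc1, a nucleolar scaffold, had 240.3, 283 and 274 CPM at 48 h, against 591, 520.2 and 558 CPM at 0 h (−1.07 ± 0.08, adjusted p = 2.94e-07). Polr1b, the second largest subunit of RNA polymerase I, had 60.6, 64.5 and 72.3 CPM at 48 h, against 153, 134 and 141 CPM at 0 h (−1.12 ± 0.09, adjusted p = 3.27e-07). No 48 h library reached a 0 h library in either, and Noc2l (−1.004) and Gnl3l (−0.87) fell alongside. The proteins of the cytosolic ribosome itself moved little. Of 81, 22 fell and 6 rose with a median of −0.09, which turned to 0.08 with 6 lower and 28 higher when scaled by library size alone. Without 48 h replicate 2 the counts were 37 lower and 3 higher, and without 0 h replicate 2 there were 3 higher. Rpl22 (−0.52 ± 0.06) fell, while Rpl23a (0.58 ± 0.07) and Rpl35a (0.44 ± 0.07) rose. Many ribosomal protein genes have near-identical pseudogene copies, so these values are uncertain where reads could be split between them.

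Other steps of translation fell too. Of 43 initiation and elongation factors 36 fell and none rose (1 without 48 h replicate 3 or without 0 h replicate 3), with a median of −0.45. Eif1ax, which helps the ribosome find the start codon, had 85.1, 81.6 and 79.7 CPM at 48 h, against 202, 216 and 224 CPM at 0 h (−1.38 ± 0.07, adjusted p = 1.65e-08), and Eif3l (−0.75) and Eif2s3x (−0.71) fell. Of 19 cytosolic aminoacyl tRNA synthetases 15 fell and none rose (median −0.45), with Yars (−0.81), Kars (−0.61), Iars (−0.53) and Nars (−0.52) as examples. RNA polymerase subunits had 21 of 28 lower and none higher, with a median of −0.44. Polr2l, a small subunit shared by the nuclear polymerases, had 13.4, 16.3 and 16.1 CPM at 48 h, against 47.4, 42.7 and 46.0 CPM at 0 h (−1.57 ± 0.11, adjusted p = 1.17e-07). Among SR and hnRNP splicing regulators 23 of 40 fell and 4 rose (median −0.30), with Tra2b (−0.57), Srsf7 (−0.58), Hnrnpa1 (−0.52) and Hnrnpk (−0.47) lower. Proteasome genes had 31 of 41 lower and 2 higher (1 without 48 h replicate 2 or without 0 h replicate 1 or 2), with a median of −0.31, and Psmc3, an ATPase of the base, fell (−1.02 ± 0.07).

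Growth and replication genes were also lower. Myc, a driver of ribosome and nucleotide synthesis genes, had 158, 168 and 155 CPM at 48 h, against 326, 306 and 304 CPM at 0 h (−0.96 ± 0.07, adjusted p = 1.51e-07). Its 48 h libraries lay close together and well below those at 0 h. Of 29 genes of nucleotide and folate-dependent carbon synthesis 26 fell and 1 rose, Dck (0.26), with a median of −0.65, and 11 were also lower at 48 h than at 24 h. Gart, which catalyses several steps of purine synthesis, had 213, 249 and 232 CPM at 48 h, against 507, 500.1 and 516 CPM at 0 h (−1.13 ± 0.07, adjusted p = 7.14e-08). The groups were again apart, and Dut (−1.04), Umps (−0.87) and Paics (−0.75) fell. Of 47 DNA replication genes 33 fell and 2 rose, with a median of −0.31, and 16 were lower at 48 h than at 24 h. The 2 higher genes were Rfc2 and Orc4, and the count of higher genes was 1 without 48 h replicate 3 or 0 h replicate 3 and 0 without 0 h replicate 2. The helicase subunit Mcm5 had 237, 267 and 245 CPM at 48 h, against 566, 559 and 598 CPM at 0 h (−1.20 ± 0.06, adjusted p = 1.55e-08). Pole2 (−1.46), Gins2 (−1.16) and Mcm3 (−0.72) fell as well.

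Genes of G2 and mitosis had no common direction. Of 55, 15 rose and 14 fell with a median of 0.01, which was −0.03 to −0.01 without 48 h replicate 2 or any 0 h replicate, and when scaled by library size alone 29 rose and 7 fell. The TMM shares, 27.3% and 25.5%, were near the 24.9% and 24.6% of all genes tested. The kinetochore gene Spc24 (−1.16 ± 0.08), the centriole kinase Plk4 (−0.53) and the mitotic cyclin Ccnb1 (−0.49) fell, and the phosphatase Cdc25b (0.84 ± 0.09) rose. The list of replication-dependent histone genes had 12 of 55 lower and 2 higher with a median of −0.50, and 7 lower without 48 h replicate 1. It was matched by symbol and takes in H13, which is not a histone gene, so these counts are not of histones alone. Replication-dependent histone mRNAs mostly lack a poly(A) tail and these libraries were made from polyA RNA, and the levels of those named were low. H2ac13 had 1.53, 1.33 and 1.23 CPM at 48 h, against 2.12, 3.65 and 3.83 CPM at 0 h (−1.23 ± 0.27, adjusted p = 0.00164).

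Genes known as p53 targets were mostly higher. Cdkn1a, the p21 inhibitor of cyclin-dependent kinases, had 221, 241 and 222 CPM at 48 h, against 117, 142 and 132 CPM at 0 h (0.81 ± 0.09, adjusted p = 7.2e-06). Bbc3, the death-promoting BCL2 relative PUMA, had 52.9, 56.7 and 56.8 CPM at 48 h, against 19.0, 19.0 and 16.5 CPM at 0 h (1.61 ± 0.09, adjusted p = 2.62e-08). All 48 h libraries lay above all 0 h libraries in both. Of 27 p53 targets tested 18 rose and 3 fell (Ccnd2, Bax and Aen), with a median of 0.49, and Psrc1 (1.46), Eda2r (1.39) and Ccng1 (0.70) were among the higher. Among the 15 in the top tertile by mean CPM 11 rose and 3 fell, where 19% of all genes of that tertile rose and 42.2% fell. Of 13 G1 cyclins, kinases and inhibitors 7 rose (4 without 0 h replicate 3) and 4 fell, with a median of 0.20. Rb1, the retinoblastoma protein (0.72 ± 0.09), and the inhibitor Cdkn2c (0.47 ± 0.08) rose, and the kinase Cdk6 (−0.85 ± 0.12) fell. In the BCL2 family 5 of 12 rose and 2 fell, or 1 without 48 h replicate 1 or 3. Both death-promoting and protective members rose, Bcl2l11 (0.74 ± 0.13) and Bcl2l2 (0.77 ± 0.08) among them, while Bax (−0.45 ± 0.06) fell.

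Metabolic lists outside mitochondria were lower at 48 h than at 0 h. Of 23 genes of cholesterol synthesis and uptake 18 fell and none rose, with a median of −0.42. Acat2, which condenses acetyl-CoA, had 109, 109.9 and 116 CPM at 48 h, against 220.0, 209 and 245 CPM at 0 h (−1.01 ± 0.10, adjusted p = 2.71e-06), and Tm7sf2 (−0.91), Nsdhl (−0.85) and Idi1 (−0.62) fell. Of these 23 genes 9 were higher at 48 h than at 24 h, with a median difference of 0.26, while no gene of the fatty acid or glycolysis list was. Its median was −0.68 at 24 h minus 0 h, which shares the 0 h libraries. Of 13 genes of fatty acid synthesis 10 fell and 2 rose (Acss2 and Acacb), with a median of −0.51, and Fasn, the fatty acid synthase, had 595, 579.5 and 619 CPM at 48 h, against 1135, 952 and 1035 CPM at 0 h (−0.80 ± 0.08, adjusted p = 1.7e-06). Of 29 genes of glycolysis and the hypoxia response 15 fell and none rose, with a median of −0.81. The libraries of each group stood apart over this list, whose summed level was 9618, 8012 and 7170 CPM at 48 h, against 12290, 18290 and 14570 CPM at 0 h, and the replicate 1 libraries were the nearest to each other. Hk1, the hexokinase that starts glycolysis, had 176, 175 and 168 CPM at 48 h, against 372, 363 and 357 CPM at 0 h (−1.08 ± 0.05, adjusted p = 9.51e-09). Eno1 had 472, 389.7 and 342 CPM at 48 h, against 1004, 1617 and 1290.0 CPM at 0 h (−1.70 ± 0.22), so its libraries spread more within each group, with 0 h replicate 2 the highest. Hif1a (−0.59) and Gapdh (−0.89) fell.

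Stress lists did not rise together. Of 19 genes of the unfolded protein response in the endoplasmic reticulum 14 fell and 1 rose (median −0.43), and the chaperone Hspa5 had 289.5, 291 and 288 CPM at 48 h, against 487, 411 and 447 CPM at 0 h (−0.63 ± 0.06, adjusted p = 2.18e-06). Of 13 heat shock genes 10 fell and 1 rose (median −0.45), with Hsp90ab1 (−0.77), Hsph1 (−0.85), Hspe1 (−0.59) and Hspd1 lower. The integrated stress response was split, with 8 of 19 lower and 6 higher and a median of −0.16, or 0.01 when scaled by library size alone. Atf4, its central transcription factor, had 40.1, 47.1 and 48.3 CPM at 48 h, against 89.0, 109 and 111 CPM at 0 h (−1.19 ± 0.10, adjusted p = 6.26e-07), and Slc7a5 (−1.11) and Mthfd2 (−0.64) fell while Sesn2 (0.68) rose. Among NRF2 targets 5 of 20 rose and 3 fell with a median of 0.01, which was −0.12 with 5 lower without 48 h replicate 2 and −0.06 without 0 h replicate 1. The share that rose, 25%, was near the 24.9% of all genes tested, and 15% fell beside 24.6%. Osgin1 (2.73 ± 0.33) and Cat (0.53 ± 0.07) rose, and Pgd (−0.89 ± 0.08) and Tkt (−0.41 ± 0.06) fell.

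The gene that rose furthest among well expressed genes was Spata31f1a, of a family named for spermatogenesis, with 80.9, 77.6 and 86.1 CPM at 48 h, against 2.32, 2.30 and 2.49 CPM at 0 h (5.10 ± 0.13, adjusted p = 7.31e-11). Its libraries agreed closely within each group. Several others of the 12 highest belong to platelets and red cells and are described with those lists. Mttp, which loads lipid onto lipoproteins (2.59 ± 0.10), Pkig, an inhibitor of protein kinase A (2.39 ± 0.15), Msh5, a meiotic MutS relative (2.39 ± 0.20), and Syngr4 (2.24 ± 0.11) rose. Nedd4l, a ubiquitin ligase, had 28.6, 12.2 and 12.5 CPM at 48 h, against 2.65, 5.50 and 1.43 CPM at 0 h (2.47 ± 0.69, adjusted p = 0.00922), with 48 h replicate 1 well above the other libraries. Il1bos (2.24 ± 0.17) is an antisense gene of Il1b, and with the strand setting of the counting not given in the sources used here its reads cannot be told apart from those of its partner.

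Platelet and megakaryocyte genes rose. Itga2b, the integrin alpha IIb chain known as CD41, had 190.0, 175 and 212 CPM at 48 h, against 28.9, 33.1 and 26.3 CPM at 0 h (2.71 ± 0.14, adjusted p = 1.18e-08). Gp9, a chain of the platelet receptor for von Willebrand factor, had 19.7, 20.1 and 22.1 CPM at 48 h, against 1.18, 2.09 and 1.75 CPM at 0 h (3.62 ± 0.19, adjusted p = 1.5e-08). F2rl2, the thrombin-binding protease receptor of mouse platelets, had 19.95, 23.3 and 17.9 CPM at 48 h, against 1.02, 1.68 and 1.75 CPM at 0 h (3.78 ± 0.29, adjusted p = 3.3e-07). None of these groups overlapped, which the rule for the 12 highest genes required. Of 16 genes of the list tested 9 rose and none fell, with a median of 0.60, and 9 of 16 were higher at 48 h than at 24 h. Only 5 of the 16 lie in the top tertile by mean CPM, and 3 of those rose. Itgb3, the partner of CD41, rose to 226, 239 and 201 CPM at 48 h, against 95.1, 106 and 98.8 CPM at 0 h (1.15 ± 0.08, adjusted p = 1.24e-07), and Fli1, a transcription factor of megakaryocytes, rose by 0.69 ± 0.09.

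Not all genes of that lineage were present. The summed level of the 29 listed genes was 1518 to 1581 CPM at 48 h and 910 to 1005 CPM at 0 h. The other 13 of the 29 did not pass the filter on low counts, and Clec1b, Thbs1 and Gp1bb had no count in any of the 6 libraries. Pf4, platelet factor 4, had 21.6, 14.5 and 14.5 CPM at 48 h, against 18.1, 16.9 and 9.79 CPM at 0 h, which overlapped (0.18 ± 0.25, adjusted p = 0.587). In RNA from whole cultures, more cells of a type and more RNA per cell cannot be told apart.

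**Figure D4:**
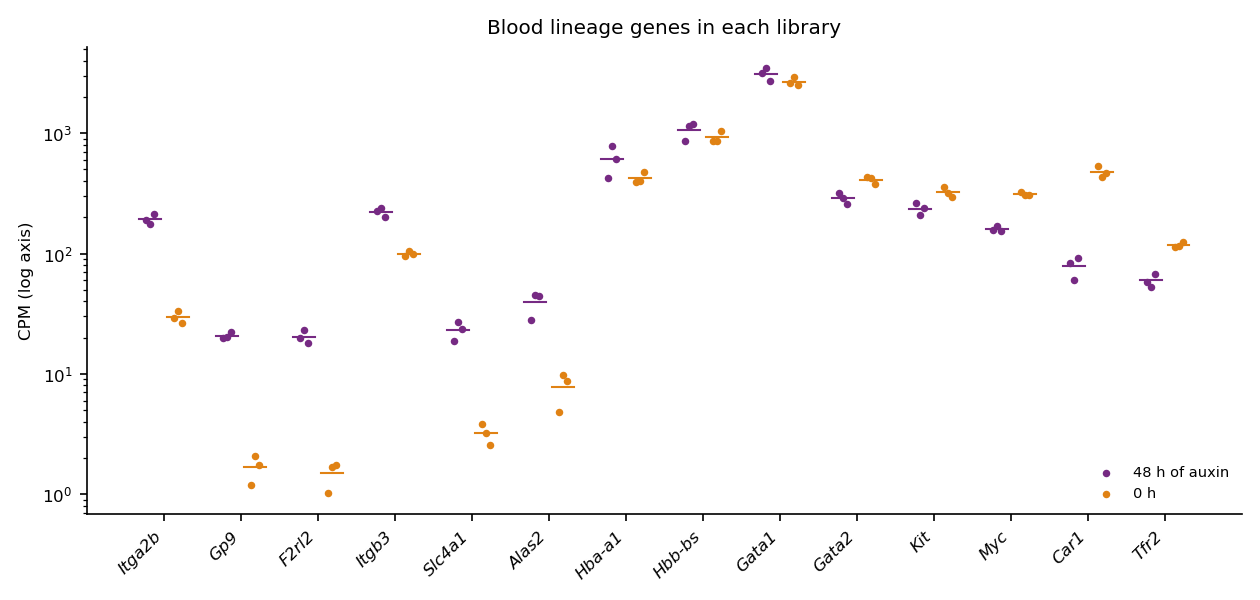
CPM on a log axis for 14 blood lineage genes, with 3 libraries (points) and their mean (bar) at 48 h of auxin (purple) and at 0 h (orange). Itga2b, Gp9, F2rl2, Slc4a1 and Alas2 are higher at 48 h with no overlap, Car1, Myc and Tfr2 are lower, and Hba-a1 and Hbb-bs overlap.

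Slc4a1, the band 3 anion exchanger of the red cell membrane, had 18.8, 27.0 and 23.6 CPM at 48 h, against 3.83, 3.20 and 2.57 CPM at 0 h (2.85 ± 0.26, adjusted p = 1.53e-06). Its groups did not overlap, which the rule for the 12 highest genes required. Car1, carbonic anhydrase 1, went the other way, with 83.9, 60.0 and 91.6 CPM at 48 h, against 533, 431 and 469 CPM at 0 h (−2.60 ± 0.14, adjusted p = 1.76e-08), and so did Pklr, the red cell pyruvate kinase (−1.90 ± 0.12). Of 27 genes of the red cell membrane and its enzymes 9 rose (33.3%) and 7 fell (25.9%), shares near those of all genes tested (24.9% and 24.6%), with a median of −0.05. That median was 0.12 when scaled by library size alone, 0.10 without 0 h replicate 2 and 0.04 without 0 h replicate 3.

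Heme, iron and globin genes were mixed as well. Alas2, the erythroid enzyme that starts heme synthesis, had 27.95, 45.5 and 44.5 CPM at 48 h, against 4.85, 9.77 and 8.77 CPM at 0 h (2.33 ± 0.33, adjusted p = 5.87e-05). The replicate 1 libraries were the lowest of each group, and the groups were apart. Of later enzymes of the pathway, Cpox had 367, 345 and 343 CPM at 48 h, against 624, 809.7 and 740.1 CPM at 0 h (−1.04 ± 0.09, adjusted p = 8.69e-07), and Urod fell by 0.74 ± 0.07 on the log2 scale. In all, 7 of 16 heme genes fell and 2 rose, with a median of −0.14, which was 0.04 with 7 higher when scaled by library size alone. Genes of iron uptake fell, with the transferrin receptors Tfrc (−0.56 ± 0.08) and Tfr2 (−0.98 ± 0.10), the endosomal ferrireductase Steap3 (−1.60 ± 0.08) and the iron transporter Slc11a2 (−0.61 ± 0.09). Ncoa4, which takes ferritin to the lysosome, rose (0.66 ± 0.06). Over the 19 iron genes 7 fell and 2 rose with a median of −0.04, or 0.13 when scaled by library size alone.

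Whether alpha globin RNA passed the test depended on the setting. Hba-a1 (0.69, adjusted p = 0.0124) and Hba-a2 (0.59, adjusted p = 0.0122) passed when scaled by library size alone, and both passed with either other filter on low counts, with the replicate block and with 2 times alone. On the TMM scale Hba-a1 had 423, 788 and 613 CPM at 48 h, against 396, 399 and 475 CPM at 0 h, which overlapped (0.52 ± 0.21, adjusted p = 0.0533), and the value was 0.28 without 48 h replicate 2 and 0.71 with an adjusted p of 0.00887 without 48 h replicate 1. Hba-a2 (0.43 ± 0.18, adjusted p = 0.0663) is a near-identical copy, so reads may be split between them, and it was 0.21 without 48 h replicate 2 and 0.58 with an adjusted p of 0.0158 without 48 h replicate 1. Hbb-bs had 859, 1149 and 1182 CPM at 48 h, against 857, 868 and 1052 CPM at 0 h (0.20 ± 0.14, adjusted p = 0.247). Hbb-bt, its close copy, rose (0.97 ± 0.17, adjusted p = 0.000381), so 1 of 5 globin genes tested passed, and 3 did without 48 h replicate 1.

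Transcription factors of the lineage moved in both directions. Gata1 had 3176, 3469 and 2721 CPM at 48 h, against 2626, 2906 and 2504 CPM at 0 h, which overlapped (0.22 ± 0.09, adjusted p = 0.0543). The test was passed without 48 h replicate 3 (0.31, adjusted p = 0.0101) or 0 h replicate 2 (0.27, adjusted p = 0.0385), and the value was 0.13 without 48 h replicate 2. Gata1 also passed when scaled by library size alone (0.39, adjusted p = 0.00144), with either other filter on low counts, with the replicate block, with 2 times alone and with DESeq2 (0.21, adjusted p = 0.0467). Reads assigned to Gata1 may come from the GATA1 fusion that the line carries. Gata2, the progenitor factor that GATA1 replaces, had 319.5, 287 and 257 CPM at 48 h, against 429.7, 421 and 379.7 CPM at 0 h (−0.51 ± 0.09, adjusted p = 0.000227), and Kit (−0.45 ± 0.10) and Klf1 (−0.36 ± 0.07) fell. Ikzf1, the lymphoid and progenitor factor Ikaros, fell furthest of this list (−1.02 ± 0.07, adjusted p = 1.26e-07), and Bcl11a (−0.56 ± 0.07), a repressor of embryonic globins, and Lmo2 (−0.46 ± 0.05) fell. Bach1, a heme-sensing repressor (0.74 ± 0.10), and Tal1 (0.36 ± 0.05) rose. Of 24 regulators 9 fell and 4 rose (7 rose without 48 h replicate 3) with a median of 0.03, which was −0.01 without 48 h replicate 1 or 2, and 9 were higher at 48 h than at 24 h. Of 14 stem and progenitor regulators 5 fell and 3 rose with a median of −0.10, or 0.07 when scaled by library size alone, and Meis1 rose (1.93 ± 0.27).

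Markers of other blood cells were mostly at low levels. Of 23 myeloid genes 5 passed the filter on low counts, 2 rose and 1 fell (1 rose without 48 h replicate 2 or 0 h replicate 2), and the sum over the whole list was 65.8 to 67.9 CPM at 48 h and 56.7 to 64.0 CPM at 0 h. Lyz2 (2.11 ± 0.41) rose but stayed under 2 CPM. Of 17 mast cell and basophil genes, Gata2 among them, 9 were tested, 3 rose and 5 fell, and the sum over the whole list was 672 to 807 CPM at 48 h and 821 to 981 CPM at 0 h. What part these cells had in other results was not tested. Ms4a2, a chain of the IgE receptor, had 0.558, 0.379 and 0.559 CPM at 48 h, against 8.07, 4.07 and 2.73 CPM at 0 h (−3.30 ± 0.48, adjusted p = 7.26e-05), and the protease Mcpt2 rose (2.45 ± 0.32) to at most 2.58 CPM. Of 22 lymphoid genes 6 were tested, none rose and 2 fell, the kinase Lck (−1.95 ± 0.25) and Cd3g (−1.59 ± 0.36), while Gata3 passed without 0 h replicate 2 alone (0.66, adjusted p = 0.0203). The sum of the lymphoid list was 9.41 to 11.7 CPM at 48 h and 14.6 to 17.9 CPM at 0 h.

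Lysosome, interferon and immediate early genes rose on balance. In the top tertile by mean CPM lie 33 of 49 lysosome genes tested, but only 3 of 16 interferon and 3 of 16 immediate early genes. Genes of low level rose in general, with medians of 0.35 in the bottom, 0.04 in the middle and −0.12 in the top tertile. How much of the list medians goes with level was not tested. Of 49 genes of lysosomes and autophagy 25 rose and 6 fell, with a median of 0.26, and 8 were also higher at 48 h than at 24 h. Gabarap, which coats growing autophagosomes, had 153, 166 and 154 CPM at 48 h, against 93.1, 88.8 and 90.4 CPM at 0 h (0.80 ± 0.06, adjusted p = 1.59e-07). The groups did not overlap, and Psap (0.80 ± 0.07) and Lamp2 (0.71 ± 0.07) rose while the proton pump subunit Atp6v1b2 fell (−1.12 ± 0.09). Of 16 interferon response genes 10 rose and 1 fell (2 without 48 h replicate 1), with a median of 0.47. Ifi27 had 64.7, 59.7 and 66.4 CPM at 48 h, against 26.5, 24.6 and 23.5 CPM at 0 h (1.35 ± 0.09, adjusted p = 6.45e-08), and Bst2 (0.65 ± 0.11) rose while Ifi35 (−0.41 ± 0.07) fell. Of 16 immediate early genes 7 rose and 2 fell, with a median of 0.52. Jund, an AP-1 subunit linked to slower growth, had 116, 126 and 103 CPM at 48 h, against 47.3, 50.1 and 41.9 CPM at 0 h (1.31 ± 0.10, adjusted p = 2.58e-07), and Btg2 (1.30 ± 0.15) and Zfp36 (1.23 ± 0.15) rose.

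Partners of YY1 in chromatin were uneven. In the list of PRC1.6 and MBT-domain genes 10 of 21 fell and 3 rose with a median of −0.11, or 0.06 when scaled by library size alone, and 0 or 1 rose whenever any of the 6 libraries was left out. Besides Sfmbt2, L3mbtl2, an MBT-domain subunit of the variant Polycomb complex PRC1.6, had 41.2, 42.8 and 43.0 CPM at 48 h, against 112, 109 and 108 CPM at 0 h (−1.37 ± 0.06, adjusted p = 6.46e-09), and Hdac1 (−0.89) and Rnf2 (−0.65) fell. Of 14 subunits of INO80, a nucleosome remodeller that binds YY1, 8 fell and 5 rose, with Ruvbl2 (−1.01 ± 0.06) and Actr5 (−0.70 ± 0.08) lower and Actr8 (0.55 ± 0.06) higher. CTCF, cohesin and LDB1 genes had 4 of 14 higher (2 without 48 h replicate 1 or 0 h replicate 1) and 3 lower, with a median of 0.05. Those shares, 28.6% and 21.4%, were near the 24.9% and 24.6% of all genes tested. By library size alone 8 were higher and 1 lower. Rad21, a cohesin subunit, rose by 0.33 ± 0.05, and Stag1 (−0.55 ± 0.10) and Ldb1 (−0.34 ± 0.07) fell. The call of Ldb1 was lost by library size alone (−0.17, adjusted p = 0.0734).

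Few genes differed between 48 h and 24 h by more than 1 on the log2 scale, 61 higher and 39 lower. The highest by the rule for named genes were F2rl2 (1.40), Cuedc1 (1.36), Gsn, the actin-severing protein gelsolin (1.35), and Inpp4b, a lipid phosphatase (1.34). Gsn had 48.1, 61.8 and 54.2 CPM at 48 h, against 25.3, 25.0 and 16.0 CPM at 0 h, and its difference at 24 h minus 0 h was −0.05 ± 0.21. The lowest were Nipsnap1 (−1.79), Tmem44 (−1.54), Slc30a2, a zinc transporter (−1.37), and Car1 (−1.34). Slc30a2 had 11.2, 10.6 and 9.13 CPM at 48 h, against 33.8, 28 and 25.6 CPM at 0 h (−1.50 ± 0.14), and at 24 h minus 0 h it was −0.13 ± 0.14. Itga2b was higher at 48 h than at 24 h by 1.02 ± 0.13 (adjusted p = 0.000912), Alas2 by 1.18 ± 0.31 (adjusted p = 0.0412) and Gata1 by 0.51 ± 0.09 (adjusted p = 0.00642), and for Tfr2 the difference was −0.93 ± 0.10 (adjusted p = 0.00032). Counts of these calls moved more than 1.5 times when a library was left out, to 164 lower without 48 h replicate 1, 182 lower without 24 h replicate 2, and 217 and 213 higher without the same libraries. They were 249 higher without 48 h replicate 2, 314 higher and 257 lower without 48 h replicate 3, and 297 higher without 24 h replicate 1.

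TT-seq, which sequences RNA labelled in living cells during a short pulse, gives newly made RNA after 4 h of auxin against untreated cells in 6 other libraries of the same subline. There 237 genes (2.11% of 11218 tested) were higher and 795 (7.09%) lower, and a fit blocked on replicate number, which pairs these libraries, called 2541 higher and 2833 lower. Of 10110 genes tested in both assays 3279 fell in RNA at 48 h and 773 in TT-seq, and 592 were in both lists, which is 18.1% of the first and 76.6% of the second. For higher genes 151 were in both lists, 5.79% of 2610 at 48 h and 68.6% of 220 in TT-seq. With the block the shared lower genes were 1663 (50.7% and 60.9%) and the shared higher genes 1153 (44.2% and 48.2%). In opposite directions, 195 genes lower in TT-seq rose at 48 h (7.14%) and 275 higher in TT-seq fell (11.5%) with the block. Without it these were 20 (2.59%) and 7 (3.18%). Of genes not called in TT-seq, 26.9% fell and 25.3% rose at 48 h with the block, and 29.4% and 26.8% without it. Genes lower in TT-seq without the block had a median log2 fold change of −0.61 in RNA at 48 h, and genes higher in TT-seq without it 0.64.

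Among the 12 lowest genes at 48 h, 8 were lower in TT-seq, with Sfmbt2 at −1.90 ± 0.10, Nipsnap1 at −1.78 ± 0.21, Clybl at −1.82 ± 0.15 and Dbt at −1.74 ± 0.18. Mmp14 (−0.46), Chchd10 (−0.96), Col18a1 (−0.40) and Ydjc (−0.82) did not pass without the replicate number as a block. With it, all 12 were lower, Mmp14 at −0.45 (adjusted p = 8.76e-05) and Chchd10 at −0.95 (adjusted p = 9.49e-16) among them. Of the 12 highest genes 10 were tested in TT-seq, and Mttp (0.50, adjusted p = 0.0348) and Pkig (0.43, adjusted p = 0.0244) were higher there without the block. With the block 8 of the 10 were higher, among them F2rl2 (1.25 ± 0.26, adjusted p = 2.01e-05) and Itga2b (0.28 ± 0.08, adjusted p = 0.00187, against an adjusted p of 0.191 without it). Slc4a1 (0.46, adjusted p = 0.149 with the block) and Alas2 (adjusted p = 0.985) passed in neither fit. Car1 (−0.17, adjusted p = 5.2e-05) and Myc (−0.27, adjusted p = 8.34e-09) were lower with the block and did not pass without it (adjusted p = 0.583 and 0.358).

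**Figure D5:**
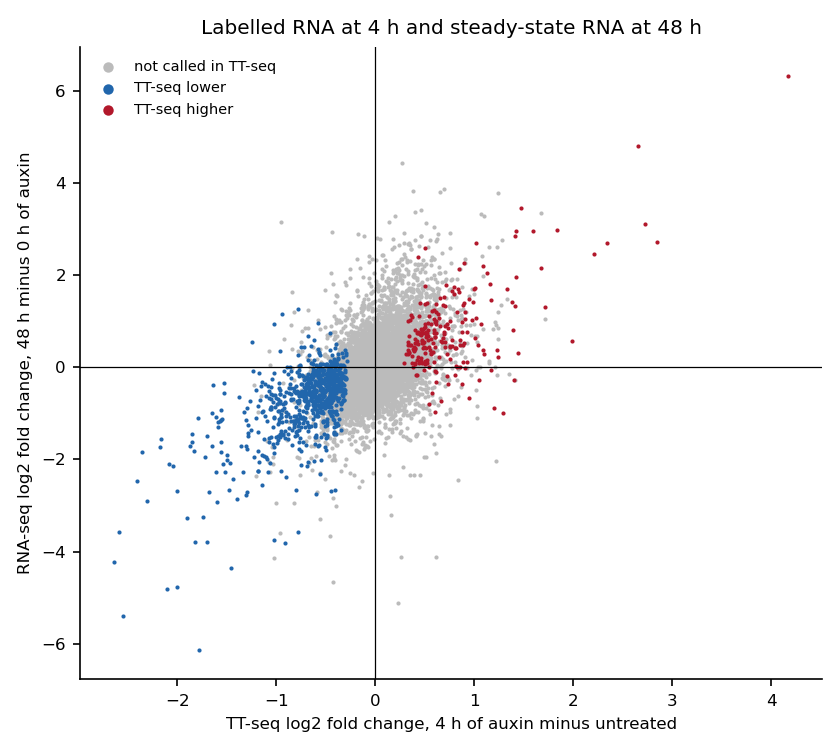
Log2 fold change in RNA-seq at 48 h minus 0 h of auxin (vertical axis) against that in TT-seq at 4 h of auxin minus untreated (horizontal axis) for 10110 genes, coloured by the TT-seq call of the fit without the replicate block. Genes lower in TT-seq lie mostly below 0 on the vertical axis (592 of 773 fell at 48 h), and many genes with large changes at 48 h are grey. Grey depends on the fit. Without the block TT-seq called no change for 93.4% of genes higher and 81.7% of genes lower at 48 h, and with the block for 48.4% and 40.9%.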

How the data were processed

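The members and gene lists were chosen with earlier results of these data known. Asynchronous cells gave polyA RNA (column kit with DNase, stranded mRNA libraries), per the labels' protocols, and the authors deposited estimated counts per gene from Salmon 0.13.1 (mm9), per the submitters' processing notes. The transcript set and the strand setting are not given in those notes or labels. For TT-seq the authors deposited counts per gene (Trim Galore 0.6.10, STAR, SAMtools, mm9), per the submitters' processing notes. TT-seq totals were 30.2 M to 53.5 M, and lines naming no gene (no feature 17.2% to 22.2%, ambiguous 0.391% to 0.529%) were left out.

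Estimated counts were rounded and fitted for all 12 libraries in edgeR 4.0.16 (R 4.3.3; filterByExpr, TMM, quasi-likelihood F-test, no block), with Benjamini-Hochberg adjustment over all genes tested and 0.05 as the threshold. SE is the log2 fold change over the square root of F. All p-values in the text are edgeR's unless another tool is named. On simulated counts the fit recovered 61% of 100 genes changed by 1 and 88% of 100 changed by 2 on the log2 scale, and called 4 of 14568 unchanged genes. Only 200 of 15157 genes were changed there, up and down alike, so the simulation does not test the scaling where many genes move. Same-numbered TT-seq libraries deviated together (correlations 0.85, 0.91 and 0.69). For same-numbered 48 h and 24 h libraries the correlations were weak (0.23, 0.23 and 0.12), and those of other pairs ran from −0.42 to 0.15, so no pairing is clear there.

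Named genes are Yy1, the 12 highest and 12 lowest at 48 h minus 0 h (mean log2 CPM of at least 3, no overlap, predicted genes left out), the 4 highest and lowest at 48 h minus 24 h, up to 4 members of each list by p, fixed lineage markers, and genes silent in 1 group. Members named because they ran against their list, neighbouring genes and the genes of printed promoters were chosen after their values were seen. Alternatives were other scalings, filters, designs, DESeq2 1.42.0 and leaving out each library. Peaks, untreated lines and spike-ins were not used here, and a few genes that the rule names are not reported here.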

Additional observations from a re-analysis of the deposited data

How the results depend on the processing

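Median-of-ratios scaling, other filters on low counts, the fit of 2 times alone, each left-out library and DESeq2 kept the counts of genes higher and lower at 48 h than at 0 h within 1.5 times, with 3208 to 3454 higher and 3337 to 3722 lower over left-out libraries, and 3620 higher and 3834 lower with DESeq2. Scaling by library size alone gave 5493 higher and 2473 lower and turned 47 of 7510 calls round. Of 227 genes named, that scaling ended the call of 7 (mt-Nd1, Asxl2, Ogt, Ldb1, Pds5a and Larp7 among them) and added 6. Leaving out 1 library also ended the call of Csf1r (1.42 without 48 h replicate 2, 1.24 without 0 h replicate 2). For 48 h minus 24 h, the 2 times alone gave 161 lower, DESeq2 781 higher and 690 lower, and left-out libraries 213 to 352 higher and 164 to 375 lower. The cause of these differences was not tested.

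The replicate number as a block gave 3951 higher and 3917 lower at 48 h minus 0 h, where same-numbered libraries did not deviate together (correlations 0.03, −0.12 and 0.16), and 652 higher and 615 lower at 48 h minus 24 h. It ended no call among the named genes and added 4, Hba-a1, Hba-a2, Gata1 and mt-Nd3. With only the first promoter listed for each gene (added after seeing the data), AANATGGC was in 12.8% of lower, 8.28% of higher and 8.84% of genes not called.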

Other observations

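Genes outside the main programmes moved as well. Taf9b, a TFIID subunit on the germline list, had 1.12, 1.63 and 0.969 CPM at 48 h, against 15.5, 16.1 and 13.01 CPM at 0 h (−3.58 ± 0.22, adjusted p = 6.19e-08), and Zcwpw1, a reader of histone marks at meiotic breaks, had 25.4, 30.1 and 27.3 CPM at 48 h, against 6.69, 6.32 and 6.04 CPM at 0 h (2.12 ± 0.12, adjusted p = 2.91e-08). Neither gene had overlapping groups. Of 52 germline and meiosis genes 15 were tested, 6 rose and 4 fell, with a median of 0.09, and 18 had no count in any library. In the Epo receptor and JAK-STAT5 list 6 of 20 rose and 8 fell with a median of −0.09, or 0.08 when scaled by library size alone. Epor fell (−0.57 ± 0.06), and so did Spred2, a brake on RAS signalling (−1.20 ± 0.13), while Socs2, a feedback inhibitor of STAT5 (0.52 ± 0.05), and the adaptor Gab1 (0.59 ± 0.08) rose. Of 20 core Polycomb genes 3 rose and 4 fell with a median of −0.09, or 0.08 when scaled by library size alone. The TMM shares were 15% and 20%, beside 24.9% and 24.6% of all genes tested. Bmi1 (−0.83 ± 0.08) and Kdm2b (−0.39 ± 0.06) fell, and Phf1 (0.82 ± 0.13) and Ezh1 (0.54 ± 0.09) rose.

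Of 13 relatives and partners of YY1 1 rose (2 without 0 h replicate 2), Hcfc1 (0.41 ± 0.06), and 5 fell, among them Foxk2 (−0.37 ± 0.07), Asxl2 (−0.26 ± 0.07) and Ogt (−0.41 ± 0.11), with a median of −0.02, or 0.15 when scaled by library size alone. By library size alone the calls of Asxl2 (−0.09, adjusted p = 0.261) and Ogt (−0.24, adjusted p = 0.109) were lost. In the list of BET proteins and P-TEFb 2 of 13 rose and 4 fell with a median of −0.13, or 0.03 when scaled by library size alone, and Brd2 fell (−0.47 ± 0.05) while Aff1 rose (0.85 ± 0.13). The pluripotency list had 1 tested gene of 16, Dppa4, with 36.8, 35.1 and 38.6 CPM at 48 h, against 39.7, 38.6 and 40.0 CPM at 0 h, which did not pass (−0.10 ± 0.10, adjusted p = 0.435).

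A few genes had at most 3 counts in every library of 1 group and at least 1 CPM in every library of the other. Eif1ad3 had 58, 58 and 75 counts at 48 h, against 0, 0 and 0 counts at 0 h, which is at least 58.4-fold higher, taking a floor of 3 counts over the 0 h group. Got1l1 had 28, 35 and 48 counts at 48 h, against 0, 1 and 2 counts at 0 h, a ratio of 33.9 (exact 95% interval 11.3 to 167, counting error only). Zg16 had 30, 30 and 28 counts at 48 h, against 1, 3 and 2 counts at 0 h, a ratio of 13.4 (exact 95% interval 5.94 to 37.6). In the other direction Ndufb4b, a near-identical relative of a complex I gene, had 0, 0 and 0 counts at 48 h, against 46, 50 and 54 counts at 0 h, at least 54.5-fold lower by the same floor of 3 counts over the 48 h group. Eif1ad3 and Ndufb4b have close copies elsewhere in the genome, so their counts depend on how reads were divided among them.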
